A study of Mus musculus with 3 samples.

Results

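Kinesins and tubulins are the motor proteins that walk along, or take apart, microtubules and the proteins from which microtubules are built. The genes were taken by symbol, as Kif with a number or Tub with a class letter (a, b, d, e or g), which gave 56 members among the 24421 genes counted, 37 of them kinesins and 19 tubulins. The symbol rule itself uses no measured value, although these families were proposed with earlier results of these data known. RNA sequencing was deposited for SB28, an established mouse glioblastoma cell line on the C57BL/6 background, labelled with brain as its source. The 3 replicate libraries form 1 group, each prepared with a TruSeq kit from an input of 1 µg total RNA. The labels name no control, treatment, time or genotype beyond this background, and do not say whether the replicates were separate cultures. SDs therefore measure the spread between these libraries, which may be technical, and no condition is compared with another. The p-values do not measure that spread. Chi-square tests compare counts with counting noise, and sign-flip tests ask only whether a ratio keeps its sign.

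Microtubules are hollow polymers of alpha- and beta-tubulin dimers. Gamma-tubulin starts new microtubules, while delta- and epsilon-tubulin belong to the centriole. Most kinesins use ATP to carry cargo towards microtubule plus ends, others slide spindle microtubules apart, bind chromosomes or remove tubulin from microtubule ends, and many of these are made mainly by dividing cells.

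Libraries held between 28990128 and 36019009 counts assigned to genes. Values are counts scaled to 1000000 assigned counts (CPM). A level compared between genes is given as CPM per kilobase (kb) of the gene's merged exons. Detection required at least 1 CPM in each of the libraries. Replicates 1 and 2 lay close to each other and replicate 3 lay apart. In a chi-square test against counting noise, adjusted by Benjamini-Hochberg over all genes tested, 2.01% of 12746 genes differed between replicates 1 and 2, against 64.0% between replicates 1 and 3 and 62.8% between replicates 2 and 3. Among cell type markers, 0 of 7 microglial genes, 0 of 7 male germ cell genes, 1 of 8 platelet genes, 0 of 8 motile cilia genes and 4 of 13 neuronal genes were detected. A further 3 motile cilia genes and 3 neuronal genes reached 1 CPM in some libraries only. In bulk RNA, fewer cells of a type and less RNA per cell cannot be told apart.

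Both families were broadly present. Of the kinesins, 29 of 37 (78.4%) were detected, as were 15 of 19 tubulins (78.9%), where the share over all genes was 46.6%. Kinesin genes held 0.194%, 0.197% and 0.241% of the assigned counts in replicates 1, 2 and 3. Tubulin genes held 0.445%, 0.435% and 0.479%, so both summed shares were highest in replicate 3. Among detected members, the median level was 34.9 CPM per kb for tubulins and 7.90 CPM per kb for kinesins, with 7.57 CPM per kb for all detected genes.

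Most alpha-tubulin RNA came from Tuba1a, Tuba1b and Tuba1c, which lie together on chromosome 15. Tuba1a (chr15:98949837-98953703 in GRCm38, minus strand), the alpha-tubulin known from developing neurons, had 842, 863 and 567 CPM in replicates 1, 2 and 3. Tuba1b (chr15:98931425-98934565, minus strand), the form made in most dividing cells, had 476, 464 and 742 CPM. Tuba1c, also widely made, had 145, 139 and 199 CPM. Tuba1a was thus the higher of the first pair in replicates 1 and 2 and the lower in replicate 3. The per-kb levels averaged 420.0 ± 91.8 CPM per kb (SD, n = 3) for Tuba1a, 299 ± 83.7 CPM per kb (SD, n = 3) for Tuba1b and 70.4 ± 14.5 CPM per kb (SD, n = 3) for Tuba1c.

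The log2 ratio of Tuba1b over Tuba1a per kb was -0.88, -0.95 and 0.33 in replicates 1, 2 and 3, averaging -0.50 ± 0.72 (SD, n = 3). It changed sign between libraries, so the pair did not differ beyond its spread (exact two-sided sign-flip permutation p = 0.5). Without replicate 3 the mean ratio was -0.92, with both libraries on the same side. As shares of all alpha-tubulin per kb, Tuba1a made up 57.9%, 59.2% and 38.2% and Tuba1b made up 31.5%, 30.6% and 48.04%. Tuba1b lay above Tuba1c in every library, 4.20-fold (range 4.01 to 4.55), which exceeded the spread (exact sign-flip permutation p = 0.25, the smallest that 3 libraries allow). That ratio was 2.07 on the log2 scale, and 3.10 with the length free of shared words used next.

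These alpha-tubulin values carry a limit that lies in the sequences themselves. Over the whole coding sequence Tuba1a and Tuba1b are 98.3% identical, and their proteins are 99.6% identical. Of the 50-base words in each transcript, 82.2% for Tuba1b, 64.25% for Tuba1a and 61.0% for Tuba1c also occur in transcripts of other genes. A read of up to 50 bases from such a stretch cannot be placed with certainty. Longer reads may be placed, and the read length is not given here. When counts were instead divided by the transcript length free of shared words, an alternative added after seeing the data, Tuba1a made up 42.7%, 43.96% and 24.6% of alpha-tubulin in replicates 1, 2 and 3. Tuba1b then made up 50.2%, 49.2% and 67.2%, and the log2 ratio turned to 0.61 in favour of Tuba1b. The Tuba1a share was lowest in replicate 3 under both scalings. That order follows from the CPM, because each length is the same in every library, so it does not bear on the placement of reads.

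The minor alpha-tubulins spanned a wide range. Tuba4a, known from platelets and adult neurons, had 79.9, 76.6 and 94.8 CPM, with 37.3% of its exon length overlapping Stk16. Tuba8 had 1.17, 1.35 and 2.33 CPM from 42, 39 and 76 counts. Tuba3a and Tuba3b, testis forms whose proteins are identical to each other, had 0 counts in all 3 libraries. A count of 0 allows up to 0.0833, 0.103 and 0.0919 CPM in replicates 1, 2 and 3, which covers counting error only. Male germ cell markers were likewise nearly empty, with 5 of 7 genes at 0 counts.

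**Figure D1:**
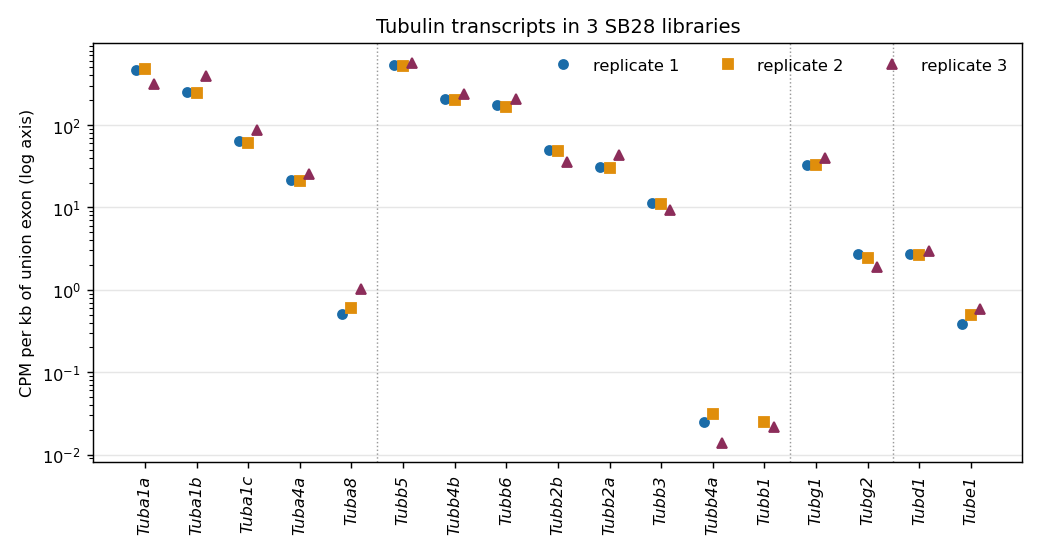
Level of each tubulin with counts, in CPM per kb of merged exon on a log axis, with 1 point per replicate library; libraries at 0 counts have no point. Tubb5 stands highest on this scale, at a mean of 541 CPM per kb, and replicate 3 lies below the other libraries for Tuba1a and above them for Tuba1b.

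Beta-tubulin was led by Tubb5 (chr17:35833921-35838306, minus strand), the form found in nearly all cells. Tubb5 had 1779.6, 1711 and 1909 CPM in replicates 1, 2 and 3, a mean level of 541 ± 30.3 CPM per kb (SD, n = 3). That placed it at the 99.7th percentile of detected genes per kb, the highest mean of the 56 members on a scale whose lengths include stretches shared between genes. Its share of beta-tubulin per kb was 52.5% ± 0.731 (SD, n = 3), with Tubb4b at 20.9% ± 0.678 (SD, n = 3) and Tubb6 at 17.8% ± 0.766 (SD, n = 3). Per kb, the order Tubb5, Tubb4b, Tubb6 held in all 3 libraries; in CPM Tubb4b and Tubb6 changed places between libraries. With the length free of shared words, Tubb4b made up 34.4%.

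Tubb4b, another widely made form, had 429, 422 and 503 CPM and Tubb6 had 429, 408 and 504 CPM. Both were highest in replicate 3. Tubb5 exceeded Tubb6 by 2.96-fold (range 2.77 to 3.07) per kb, beyond the spread (exact sign-flip permutation p = 0.25). Tubb2a and Tubb2b are neighbours on chromosome 13 that are rich in brain. Tubb2b had 114, 111 and 82.3 CPM and Tubb2a had 49.7, 48.9 and 70.1 CPM, so Tubb2b was lowest and Tubb2a highest in replicate 3. Their log2 ratio, Tubb2a over Tubb2b per kb, was -0.69, -0.66 and 0.28 and did not exceed the spread (exact sign-flip permutation p = 0.5). Without replicate 3 it averaged -0.68, with both libraries on the same side.

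Tubb3, the beta-tubulin used to mark neurons, was detected at 21.2, 20.6 and 17.2 CPM and was lowest in replicate 3 (chi-square adjusted p = 0.0012). Tubb5 was 51.4-fold (range 46.5 to 62.2) higher than Tubb3 per kb, and 91.6-fold without the length correction. Neuronal markers as a list summed to 36.2, 36.3 and 19.2 CPM over 13 genes, also lowest in replicate 3. Most of that sum came from Gap43 (12.6, 13.5 and 6.93 CPM), Eno2 (11.3, 11.3 and 5.18 CPM) and Map2 (4.97, 4.90 and 2.67 CPM). Stmn2, Nefl and Nefm were instead highest in replicate 3, and Rbfox3 and Dcx had 0 counts. The part of these markers in the Tubb3 value was not tested. Tubb4a, known from brain and oligodendrocytes, had 2, 2 and 1 counts and was not detected. Tubb4b over Tubb4a, pooled over libraries per base, was 9407-fold, with an exact 95% interval of 4031 to 28974 that covers counting error only. The mean log2 ratio per kb was 12.85, and 14.26 with the length free of shared words. It fell to 11.19 with 5 counts added, so its size depended on the number of counts added. Tubb1, the platelet form, had 0, 1 and 1 counts, and 5 of 8 platelet and megakaryocyte markers were at 0 counts.

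The first 90 coding bases of 5 beta-tubulins, shown 5′ to 3′ from the GENCODE M21 transcripts so that the differences between the forms can be seen, vary at the 20 positions in capitals:
Tubb5: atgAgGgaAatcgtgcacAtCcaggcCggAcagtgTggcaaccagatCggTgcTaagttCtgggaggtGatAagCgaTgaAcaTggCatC
Tubb4b: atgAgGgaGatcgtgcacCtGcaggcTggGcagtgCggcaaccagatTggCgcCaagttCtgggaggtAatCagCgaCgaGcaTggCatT
Tubb2a: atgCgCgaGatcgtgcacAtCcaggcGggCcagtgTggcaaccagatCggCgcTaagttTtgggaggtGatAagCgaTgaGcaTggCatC
Tubb2b: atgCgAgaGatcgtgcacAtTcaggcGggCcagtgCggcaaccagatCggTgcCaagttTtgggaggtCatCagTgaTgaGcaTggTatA
Tubb3: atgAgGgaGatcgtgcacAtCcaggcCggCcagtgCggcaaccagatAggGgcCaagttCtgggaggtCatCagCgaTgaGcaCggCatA
Tubb5 shared 0.115% of its 50-base words with other genes, and Tubb6 and Tubb3 shared 0%. The share was 50.9% for Tubb4b, 43.6% with its pseudogene Tubb4b-ps1 alone, 49.6% for Tubb2a and 39.3% for Tubb2b. Levels of the last 3 genes are therefore less certain than that of Tubb5. With the length free of shared words, Tubb5 made up 40.9% of beta-tubulin.

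**Figure D2:**
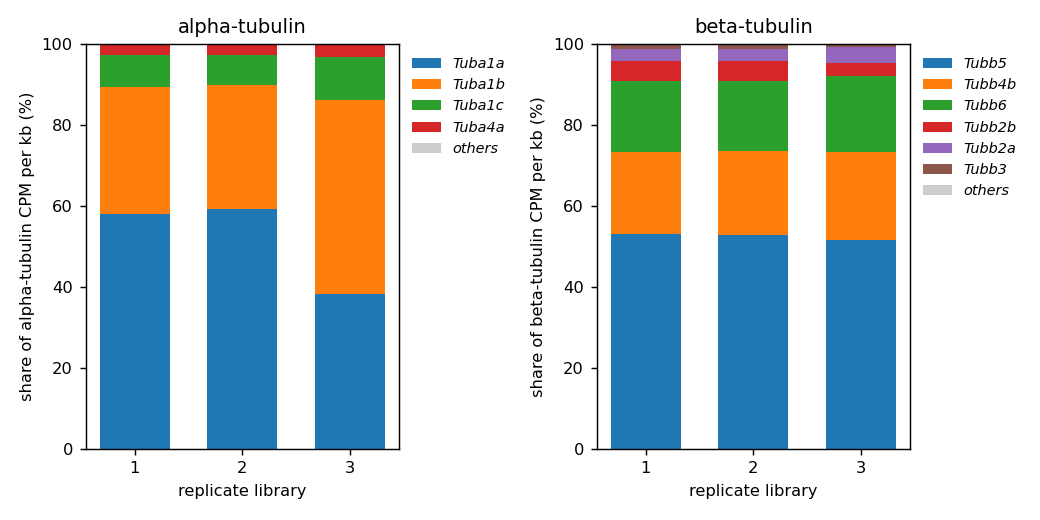
Share of each gene in the summed CPM per kb of alpha-tubulin (left) and beta-tubulin (right), in percent, with 1 stacked bar per replicate library. Tuba1a holds 57.9%, 59.2% and 38.2% of alpha-tubulin in replicates 1, 2 and 3, while Tubb5 averages 52.5% of beta-tubulin.

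Tubg1, the general gamma-tubulin of the centrosome, had 74.5, 73.1 and 89.5 CPM. Tubg2, known from brain and early embryo, had 4.72, 4.28 and 3.34 CPM and was lowest in replicate 3 (chi-square adjusted p = 0.0314). Tubg1 was 14.9-fold (range 12.2 to 20.6) higher per kb and made up 93.6% ± 1.58 (SD, n = 3) of gamma-tubulin. The centriolar Tube1 had 2.998, 3.86 and 4.63 CPM (chi-square adjusted p = 0.00397). Its partner Tubd1 had 5.58, 5.42 and 6.16 CPM and did not pass the test (chi-square adjusted p = 0.45), alone among the 15 tubulins tested.

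Across libraries, 14 of the 15 tubulins tested (93.3%) varied beyond counting noise, where 65.7% of 12737 genes did. High counts make a small difference easier to call, and the median mean count was 2732 for the tubulins tested and 956 for all genes tested. Replicate 3 was the highest library for 10 of those called; 33.1% of all genes tested were called and highest there. For 4 (Tuba1a, Tubb2b, Tubb3 and Tubg2) replicate 3 was the lowest, as it was for 31.5% of all genes tested. The median log2 departure from the mean of the 3 libraries, over the 15 detected tubulins, was -0.07, -0.10 and 0.17. Over all detected genes it lay within 0.01 of 0 in each library.

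Among the kinesins, 11 were listed as acting mainly in cell division, and all 11 were detected. Kif20a, which brings the chromosomal passenger complex to the central spindle, had 164, 165 and 236 CPM in replicates 1, 2 and 3. Kif23, the motor of the centralspindlin complex at the future cleavage site, had 104, 104 and 149.9 CPM. Kif11, which pushes spindle poles apart, had 95.01, 95.9 and 157 CPM. In each of the 3 genes replicates 1 and 2 differed by less than 2 CPM and replicate 3 was the highest. The test gave chi-square adjusted p = 3.38e-131 for Kif20a, chi-square adjusted p = 9.94e-86 for Kif23 and chi-square adjusted p = 1.41e-157 for Kif11. Of the Kif20a exon length, 29.3% overlaps Cdc23, and how reads there were counted is not given in the sources used here.

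Kif4, a chromosome-bound motor of the midzone, had 82.9, 84.5 and 136 CPM, and Kif20b, a cytokinesis motor, had 70.1, 69.2 and 109.5 CPM. Of the Kif4 exon length, 15.1% overlaps Pdzd11. Kif2c, which removes tubulin from microtubules at wrongly attached kinetochores, had 54.4, 53.3 and 74.1 CPM. Kif18b, which shortens astral microtubules, had 50.4, 51.2 and 80.01 CPM, and Kif18a, which damps chromosome movement, had 28.3, 27.7 and 43.6 CPM. Replicate 3 was the highest library for each of these genes. Kif22, a chromosome-arm motor, had 48.5, 49.7 and 63.1 CPM. Kif15, which can stand in for Kif11, had 27.3, 28.8 and 47.5 CPM. Kif14, needed to complete cytokinesis, had 19.99, 20.3 and 37.9 CPM and, at 2.52 CPM per kb, the lowest level per kb of the 11.

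Per kb, Kif11 stood 4.98-fold (range 4.88 to 5.15) above Kif15, and Kif20a stood 3.67-fold (range 3.45 to 3.83) above Kif20b, or 2.29-fold without the length correction. Kif18a over Kif18b had a log2 ratio of -2.33 ± 0.03 (SD, n = 3). All 3 ratios exceeded the spread between libraries by the 2 SD rule. Each had the exact sign-flip permutation p of a shared sign, 0.25 (sign-flip adjusted p = 0.286 over 16 pairs). The Kif18a ratio depended on length. On the log2 scale it was -0.86 without the length correction and -0.88 with the length free of shared words. Kif18a and Kif18b each shared 0% of their words, so that length is the whole transcript used, with no stretch taken out.

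All 11 division kinesins varied beyond counting noise and all 11 were highest in replicate 3, against 65.7% and 33.1% of all genes tested. Their summed level was 744, 750.3 and 1134 CPM. The median log2 departure was -0.24, -0.26 and 0.40 in replicates 1, 2 and 3, and the single genes lay between 0.23 (Kif22) and 0.54 (Kif14) in replicate 3. In a list of 20 other proliferation genes, 19 were called and highest in replicate 3. That list summed to 2911, 2943 and 4508 CPM, with median departures of -0.24, -0.22 and 0.37. Their part in the kinesin values was not tested.

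**Figure D3:**
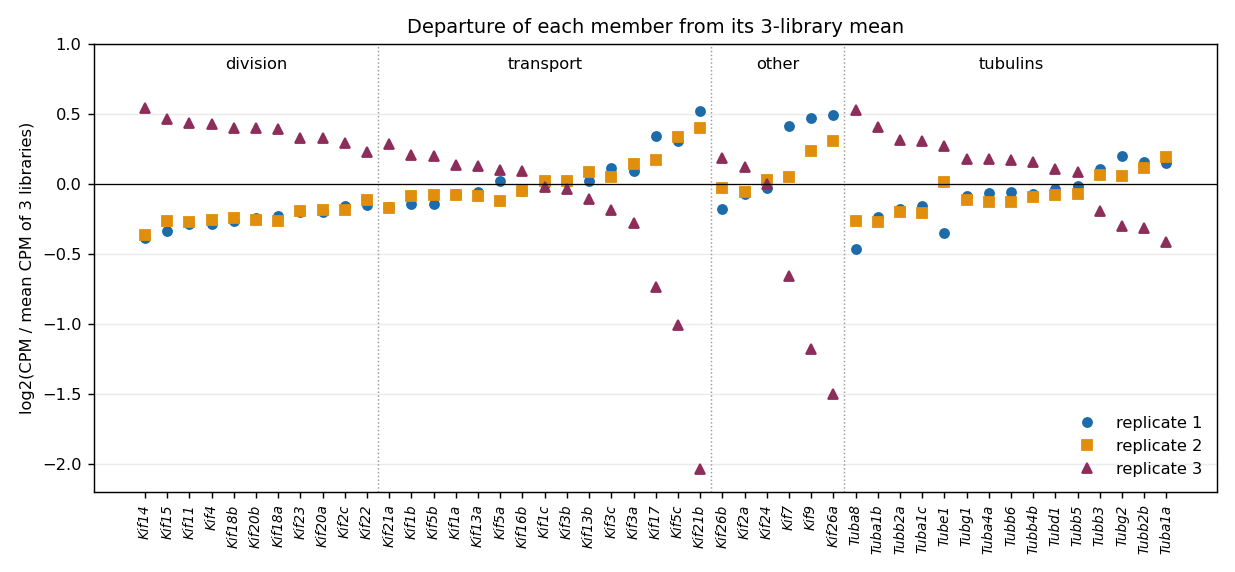
Log2 of a library's CPM over the mean of the 3 libraries for each member that averaged 10 or more counts, with 1 point per replicate. Division kinesins lie between 0.23 and 0.54 in replicate 3, whereas Kif21b lies at -2.04 and Kif5c at -1.01.

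Promoters of the division kinesins were searched because the genes moved together. The letters TTTGAA, the core of the cell cycle genes homology region (CHR), and CCAAT were looked for on both strands, from 250 bases before to 50 after each start in the RefSeq GRCm38.p6 table. The motifs share no base in the windows printed here. Windows were found for 47 of the 56 members. TTTGAA occurred in 9 of 10 division kinesin windows, where 17.9% of 32851 promoter windows held it. It occurred in 14 of 18 windows of the proliferation genes, 1 of 13 windows of transport kinesins and 2 of 16 windows of tubulins. A gene can have several windows, and by gene these were 12 of 16, 1 of 11 and 2 of 16. No window was found for the proliferation genes Aurkb, Ccna2, Incenp and Tpx2. TTTGAA was thus common in both division-related lists. Within 60 bases before to 40 after the start, 7 of the 10 held it, as did 66.7% of proliferation windows and 5.08% of all windows. CCAAT occurred in 6 of 10, and in 15 of 18 windows of proliferation genes, against 37.4% of all windows. It also occurred in 9 of 16 tubulin windows and 4 of 13 transport kinesin windows. Kinesins outside the division and transport lists held it in 5 of 12 windows, so CCAAT was not confined to the division-related lists. A match is a description of letters, and an absent match says only that the letters are not in that window.

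The 7 promoters with TTTGAA near the start are shown from 60 bases before to 40 after it, 5′ to 3′ in the direction of the gene, with either motif in capitals (TTCAAA and ATTGG are the motifs read on the other strand):
Kif11 (GRCm38.p6 chr19:37376322-37376421, plus strand): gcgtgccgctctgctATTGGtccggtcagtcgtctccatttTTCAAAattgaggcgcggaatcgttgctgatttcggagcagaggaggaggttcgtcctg
Kif15 (GRCm38.p6 chr9:122951021-122951120, plus strand): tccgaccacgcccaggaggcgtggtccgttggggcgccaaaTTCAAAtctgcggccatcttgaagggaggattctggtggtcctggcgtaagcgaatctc
Kif18b (GRCm38.p6 chr11:102925085-102925184, minus strand): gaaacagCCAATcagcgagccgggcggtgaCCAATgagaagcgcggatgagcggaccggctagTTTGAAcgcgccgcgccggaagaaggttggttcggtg
Kif20b (GRCm38.p6 chr19:34922298-34922397, plus strand): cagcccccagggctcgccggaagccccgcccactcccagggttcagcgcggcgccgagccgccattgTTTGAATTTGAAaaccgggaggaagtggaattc
Kif22 (GRCm38.p6 chr7:127042381-127042480, minus strand): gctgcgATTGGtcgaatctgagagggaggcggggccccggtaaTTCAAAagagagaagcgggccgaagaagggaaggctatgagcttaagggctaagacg
Kif23 (GRCm38.p6 chr9:61946760-61946859, minus strand): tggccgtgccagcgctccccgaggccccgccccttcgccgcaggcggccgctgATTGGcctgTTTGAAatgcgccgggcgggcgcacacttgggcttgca
Kif4 (GRCm38.p6 chrX:100626005-100626104, plus strand): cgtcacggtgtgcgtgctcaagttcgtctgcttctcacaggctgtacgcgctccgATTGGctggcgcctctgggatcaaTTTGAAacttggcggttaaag
Kif20b carries TTTGAA 2 times in a row, and Kif18b carries CCAAT 2 times. In the same stretch, 1 of 13 transport kinesin windows held TTTGAA (Kif1a) and 1 of 13 held CCAAT (Kif3a). For contrast, that stretch is shown for 2 other transport kinesins, neither of which holds a motif:
Kif1c (GRCm38.p6 chr11:70700488-70700587, plus strand): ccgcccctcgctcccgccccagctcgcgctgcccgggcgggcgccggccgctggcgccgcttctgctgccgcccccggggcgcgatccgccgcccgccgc
Kif5c (GRCm38.p6 chr2:49619226-49619325, plus strand): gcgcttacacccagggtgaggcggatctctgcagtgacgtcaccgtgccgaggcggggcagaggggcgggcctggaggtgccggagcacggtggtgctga
Their values in the libraries follow.

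Transport kinesins carry vesicles, mitochondria and other cargo, and 13 of 15 were detected. Kif1c (chr11:70700548-70731964, plus strand), which moves integrin-bearing vesicles, had 289, 292 and 284 CPM and did not pass the test against counting noise (chi-square adjusted p = 0.385). Kif5b (chr18:6201002-6242174, minus strand), the general heavy chain of conventional kinesin, had 250.4, 261 and 317 CPM and was highest in replicate 3 (chi-square adjusted p = 7.37e-71). Kif1b, a mitochondrial and synaptic vesicle precursor motor, had 126, 131 and 161 CPM. Per kb, Kif1c averaged 39.6 ± 0.596 CPM per kb (SD, n = 3) and Kif5b 34.6 ± 4.51 CPM per kb (SD, n = 3), with Kif20a at 43.4 ± 9.48 CPM per kb (SD, n = 3). Kif20a had the highest mean of the kinesins through replicate 3, while Kif1c was above it in replicates 1 and 2, and neighbouring ranges overlapped. In the same unit, Kif1b over Kif1c had a log2 ratio of -2.33 ± 0.21 (SD, n = 3), beyond the spread; it was -1.06 without the length correction and -1.67 with either transcript-based length. Kif1a, the neuronal member of that family, was just above the threshold at 1.25, 1.24 and 1.44 CPM.

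Kif5c, the neuron-enriched heavy chain, had 49.8, 50.8 and 19.9 CPM. Its level in replicate 3 was thus under those of both other libraries (chi-square adjusted p = 7.81e-106), opposite in direction to Kif5b. Kif5b exceeded Kif5c by 6.65-fold (range 4.50 to 14.2) per kb. Kif5c made up 18.2%, 17.8% and 6.55% of the Kif5 family in replicates 1, 2 and 3. Kif5a, the strictly neuronal heavy chain, had 0.611, 0.552 and 0.644 CPM and was not detected.

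**Figure D4:**
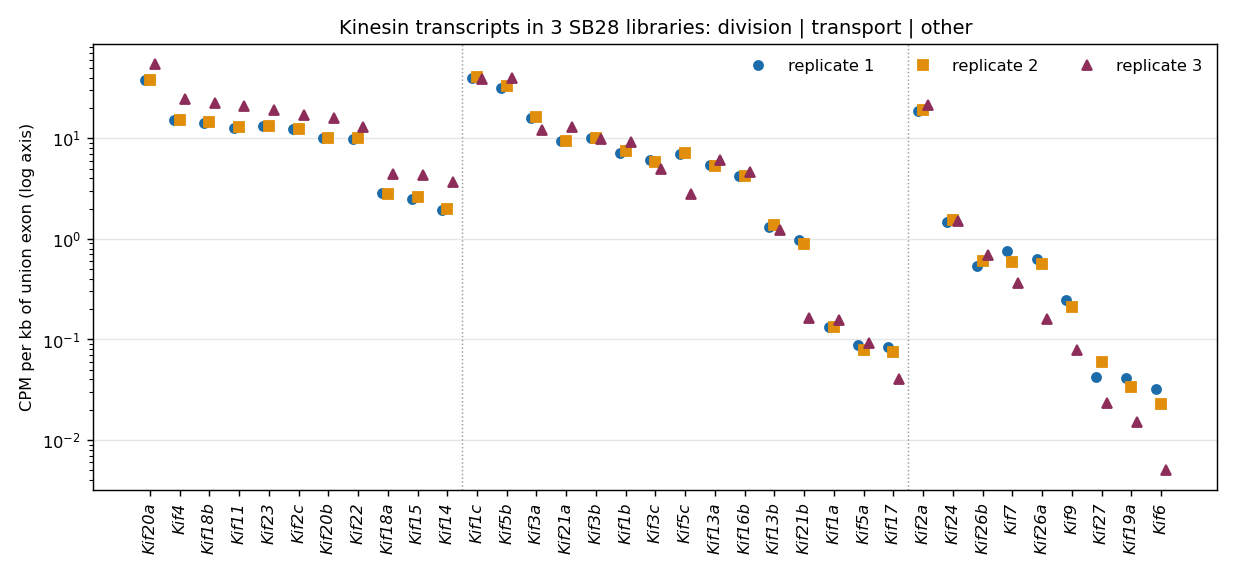
Level of each kinesin with counts, in CPM per kb of merged exon on a log axis, with 1 point per replicate library, grouped by role; libraries at 0 counts have no point. Over detected members the median is 13.9 CPM per kb for division kinesins, 5.66 CPM per kb for transport kinesins and 0.611 CPM per kb for the remaining kinesins.

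The kinesin-2 motor of cilia pairs Kif3a with Kif3b or Kif3c. Kif3a had 56.3, 58.3 and 43.5 CPM and was lowest in replicate 3. Kif3b had 56.9, 57.02 and 54.9 CPM and did not pass the test (chi-square adjusted p = 0.651). Kif3c had 45.4, 43.5 and 36.9 CPM, with 40.7% of its exon length overlapping another gene. Kif3a lay 1.46-fold (range 1.25 to 1.61) above Kif3b per kb, but without the length correction the log2 ratio was -0.11, and without replicate 1 the ratio no longer exceeded the spread at 0.50. Kif17, a homodimeric kinesin-2 of neurons, had 14, 10 and 6 counts and was not detected (chi-square adjusted p = 0.348).

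Kif21a had 61.3, 61.02 and 83.7 CPM and was highest in replicate 3. Kif21b, its relative known from neurons and lymphocytes, had 11.7, 10.8 and 1.99 CPM from 423, 312 and 65 counts, the largest departure of any member tested at -2.04 on the log2 scale in replicate 3 (chi-square adjusted p = 1.44e-49). The pair thus moved in opposite directions. Kif21a exceeded Kif21b by 20.2-fold (range 9.82 to 78.5) per kb, a mean log2 ratio of 4.33 that was 3.35 without replicate 3 and 3.42 without the length correction. Kif13a, an endosome motor, had 43.4, 42.6 and 49.4 CPM and Kif13b had 17.2, 18.04 and 15.8 CPM, a ratio of 4.26-fold (range 3.80 to 5.02) per kb. On the log2 scale that ratio was 2.09, against 1.40 without the length correction and 1.11 with the length free of shared words. Kif13a and Kif13b also shared 0% of their words, so that length is the whole transcript used. Kif16b, an early endosome motor, had 38.1, 38.2 and 42.2 CPM.

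Of 15 transport kinesins tested, 9 varied beyond counting noise (60%, against 65.7% of all genes), 5 of them highest and 4 lowest in replicate 3 (33.1% and 31.5% of all genes). The median departure over the 13 detected was 0.00, 0.02 and -0.02, without the common movement of the division kinesins. Its replicate 3 value was -0.20 when the mean was taken in place of the median. Of 8 neuronal markers tested, 6 were called and lowest in replicate 3, as Kif5c and Kif21b were, and Stmn2 was called and highest there with 28, 16 and 39 counts. Nefl and Nefm, too low to be tested by that rule, also had their highest counts in replicate 3. The median departures were 0.22, 0.26 and -0.66 over the 4 of 13 detected; their part in these values was not tested.

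The remaining 11 kinesins were placed in neither list, which does not exclude a part in division, and 5 were detected. Kif2a, a depolymerase known from neuron and spindle, had 120.2, 122 and 138 CPM, with 19.2% of its exon length overlapping Dimt1. Kif2a exceeded Kif2c by 1.44-fold (range 1.27 to 1.56) per kb, but with the longest transcript as length the log2 ratio was 0.18 and no longer exceeded the spread. Kif24, a centriole and cilium depolymerase, had 11.9, 12.3 and 12.1 CPM and did not pass the test (chi-square adjusted p = 0.88). Kif26b had 7.91, 8.80 and 10.2 CPM and Kif26a had 4.39, 3.86 and 1.10 CPM; both are kinesins thought to lack ATP-driven movement. Kif26a was lowest in replicate 3 (chi-square adjusted p = 2.95e-14), while Kif26b was highest there.

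Kif7, a ciliary regulator of Hedgehog signalling, had 3.47, 2.69 and 1.65 CPM (chi-square adjusted p = 5.81e-05), with 20.3% of its exon length overlapping Ticrr. Kif9, known from cilia and flagella, lay on both sides of the detection threshold with 1.05, 0.897 and 0.337 CPM. Kif6, Kif19a and Kif27, also tied to cilia, were below it, with 7, 4 and 1 counts, 6, 4 and 2 counts and 8, 9 and 4 counts. Kif12 and Kif2b, neither of them in the division list, had 0 counts in all libraries. Motile cilia markers summed to 4.11, 4.48 and 2.33 CPM over 8 genes.

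Over all kinesins, 25 of 32 tested (78.1%) varied beyond counting noise, against 65.7% of all genes, with a median mean count of 1418. Replicate 3 was highest for 18 and lowest for 7, where 33.1% and 31.5% of all genes tested were called that way. Those 7 were Kif21b, Kif26a, Kif3a, Kif3c, Kif5c, Kif7 and Kif9, none of them a division kinesin. Between replicates 1 and 2, 0 of 32 kinesins were called by the chi-square test, and 1 had an unadjusted p below 0.05. Of 15 tubulins, Tubb5 and Tubb6 were called between the same libraries, and 4 had an unadjusted p below 0.05. Over all genes tested, 2.01% were called there and 12.5% had an unadjusted p below 0.05.

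Motors and partners outside the symbol rule were read the same way. Cenpe, the kinetochore kinesin, had 122, 123 and 192 CPM, Kifc3 had 108, 107 and 127 CPM and Kifc1, a minus-end spindle motor, had 50.9, 50.4 and 68.1 CPM. Kinesin light chains, adaptors and scaffolds were detected for 11 of 12 genes. All 11 varied, 3 highest and 8 lowest in replicate 3 (all genes tested: 65.7% called, 33.1% highest and 31.5% lowest), with median departures of 0.09, 0.09 and -0.21. Spag9, a scaffold for conventional kinesin, had 228, 229 and 176 CPM, the light chain Klc1 had 163, 160.4 and 214 CPM and the mitochondrial adaptor Trak2 had 141, 141 and 116 CPM. The brain scaffold Mapk8ip2 was not detected.

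Genes that fold tubulin were all detected, 22 of 22, and 18 varied, 10 highest and 8 lowest in replicate 3, beside the same shares of 65.7%, 33.1% and 31.5% over all genes. The chaperonin subunits led the list, with 579, 579 and 649 CPM for Cct5, 587, 582 and 626 CPM for Cct2 and 552, 559 and 621 CPM for Cct8. Of the 12 genes of the gamma-tubulin ring complex and its anchors, all were detected and 10 varied, 8 of them highest in replicate 3 (65.7% and 33.1% over all genes). Cdk5rap2 had 83.3, 82.1 and 87.9 CPM, Pcnt had 67.7, 66.5 and 106 CPM and Tubgcp4 had 68.8, 69.2 and 66.7 CPM.

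**Figure D5:**
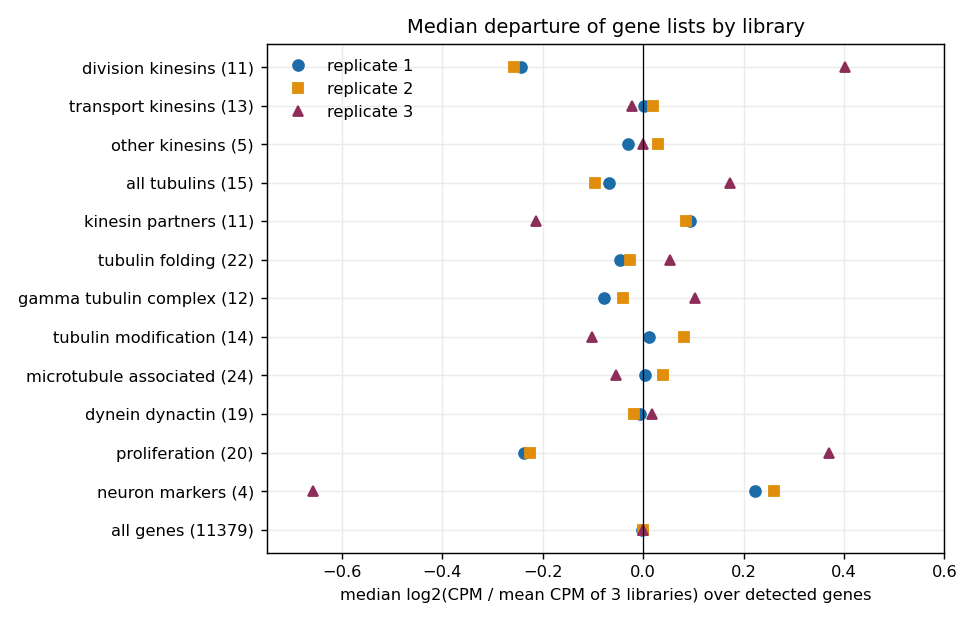
Median log2 departure of a library from the mean of the 3 libraries, over the detected genes of each list (number in brackets), with 1 point per replicate. Division kinesins and proliferation genes lie at 0.40 and 0.37 in replicate 3, neuron markers at -0.66, and all detected genes at 0.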

How the data were processed

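The authors deposited raw counts for each gene symbol. Bowtie2 2.2.4, HTSeq and mm10 are named, per the submitters' processing notes; options are not given in the sources used here. Summary lines, 15.2%, 15.2% and 17.1% of reads, were left out. HTSeq's line for alignments that were not unique held 8.93%, 8.86% and 9.58%. CPM was computed from the deposited counts over assigned reads. Lengths, positions and coding sequences came from GENCODE M21 of GRCm38, promoters from RefSeq GRCm38.p6. Chi-square tests used TMM-scaled library sizes (edgeR 4.0.16) for genes averaging 10 counts or more. They were adjusted by Benjamini-Hochberg over all genes (scipy 1.17.1), with 0.05 as threshold. A check on simulated counts held counting noise alone, so it cannot show how the tests treat further spread between replicates. Pair ratios had 0.5 counts added and exceeded the spread when the 3 libraries shared a sign and the mean exceeded 2 SD. PCR copies were not separated, so intervals cover counting error only. Members, lists and tests were chosen with earlier results of these data known. By the rule for named genes, values were due for the 12 kinesins and 8 tubulins of highest mean CPM, paired genes, members split between libraries, the 6 with the largest departures, and the 3 most abundant genes of each other list; values of further members were added after they were seen. Other settings are given in the closing section.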

Additional observations from a re-analysis of the deposited data

How the results depend on the processing

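Across 39 results and 274 alternatives, most values kept their side of the threshold. Leaving out each replicate in turn moved Tuba1b over Tuba1a between -0.92 and -0.27, Tubb2a over Tubb2b between -0.68 and -0.19 and Kif3a over Kif3b between 0.48 and 0.66 (log2 per kb); without replicate 3 both of the first pairs exceeded their spread, and without replicate 1 the last (0.50) no longer did. Counts varying without 1 replicate ranged from 0 to 25 kinesins, 2 to 14 tubulins and 256 to 8191 genes, the low values without replicate 3. Using length free of shared words turned Tuba1b over Tuba1a to 0.61, lowered Kif2a over Kif2c to 0.12 and set the shares of Tuba1a, Tuba1b, Tubb5 and Kif1c at 37.1%, 55.5%, 40.9% and 75.9%. For the Kif1c share that length is the whole transcript used, because Kif1a, Kif1b and Kif1c each shared 0% of their words. Without length correction Kif3a over Kif3b was -0.11, Tubb5 62.6% and Kif1c 67.3%. With the longest transcript Kif2a over Kif2c was 0.18 and Kif1c 75.9%. With the mean in place of the median, the replicate 3 departure was -0.20 for transport kinesins, -0.37 for the remaining kinesins and -0.024 for dynein genes. For the remaining kinesins it was -0.33 over members with a mean count of at least 10 and ranged from -0.015 to 0.015 when replicate 1 or 2 was left out. The cause was not tested beyond what these constructions show. Departures in replicate 3 have no value without replicate 3. No paired analysis was possible because the libraries form 1 group. Genes averaging under 10 counts were left out of the main test; testing every gene with a count gave 25 kinesins, 14 tubulins and 8345 genes varying. Pair ratios that moved by over 1.5 times are given beside their values in the text above.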

Other observations

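Enzymes that modify tubulin in place were read as a further list, of which 14 of 25 genes were detected. Of 17 tested, 13 varied beyond counting noise, 6 highest and 7 lowest in replicate 3; over all genes tested 65.7% were called, 33.1% highest and 31.5% lowest there. Ttll12, a tyrosine ligase relative, had 174, 163 and 206 CPM, the deacetylase Hdac6 had 80.6, 83.5 and 72.9 CPM and the polyglutamylase Ttll4 had 52.1, 50.8 and 68.7 CPM. Microtubule-associated proteins were detected for 24 of 33 genes, and 23 of 29 tested varied, 8 highest and 14 lowest in replicate 3, beside the same shares over all genes. Map4, the general stabiliser of dividing cells, had 546, 532 and 472 CPM. Map1b, known from growing neurites, had 321, 354 and 492 CPM and Ckap5, a microtubule polymerase, had 272, 275 and 336 CPM.

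The minus-end motor dynein and its dynactin partner were detected for 19 of 20 genes, with Dynlrb2 at 0 counts. Of 19 tested, 16 varied, 8 highest and 8 lowest in replicate 3 (65.7%, 33.1% and 31.5% over all genes), and the median departure in replicate 3 was 0.02. The heavy chain Dync1h1 had 604, 719 and 899 CPM, the regulator Pafah1b1 had 234, 235 and 253 CPM and the light chain Dynll1 had 217, 209 and 242 CPM.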
